A study of Mus musculus with 12 samples.

Results

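Deletion of Sirt3 on an amyloid background was examined in cortical RNA of mice aged 8 months, by setting 3 libraries labelled APP/PS1/Sirt3-/- against 3 labelled APP/PS1. These 6 libraries, chosen by their labels alone, belong to a series of 12, and 3 libraries each of Sirt3-/- and WT mice make up the rest. Mice of both groups carry the APP/PS1 transgenes, so the pair differs by the global knockout of Sirt3 alone as labelled. All samples were labelled as cortex of females. APP/PS1 mice were on a C57BL/6 background. The methods name Sirt3-/- stocks on 129 Sv and on C57BL/6 and do not say which gave the comorbid mice. Alleles that came with the knockout stock, on any chromosome, and the loss of Sirt3 therefore cannot be told apart by the labels.

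SIRT3 is a deacetylase of the mitochondrial matrix that removes acetyl groups from enzymes of fatty acid oxidation, the tricarboxylic acid cycle, the respiratory chain and antioxidant defence. It acts on proteins, so that its loss need not alter the mRNA of its targets. In APP/PS1 mice, amyloid plaques draw microglia and astrocytes that switch on a characteristic set of genes, and peptidases such as insulin-degrading enzyme (Ide) and neprilysin (Mme) clear the amyloid peptide. The comparison asks what the loss of Sirt3, used as a model of metabolic syndrome, adds to amyloid pathology.

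Reads counted in genes ranged from 15251720 to 18644376 over the 6 libraries. Levels are given as CPM, the read count of a gene divided by the size of its library, with sizes scaled by TMM (trimmed mean of M-values). In the libraries labelled APP/PS1/Sirt3-/-, Sirt3 had 28.6, 0.211 and 27.7 CPM in replicates 1, 2 and 4, against 64.3, 59.0 and 60.7 CPM in APP/PS1. Of the comorbid libraries, replicate 2 alone had the near absence of Sirt3 reads that all 3 Sirt3-/- libraries showed. App, whose reads can include those of the human transgene, had 3295, 3856 and 3479 CPM in APP/PS1/Sirt3-/-, against 3614, 3794 and 1623 CPM in APP/PS1. The library labelled APP/PS1 replicate 4 thus lay with the WT libraries, which had 1828, 1786 and 1755 CPM. Prnp, the prion protein gene, was also lowest in that library, with 1500.1, 1677 and 1489.6 CPM in APP/PS1/Sirt3-/-, against 1673, 1771 and 626 CPM in APP/PS1. Replicate 4 of each group held reads of Y-linked genes and almost none of Xist, although labelled female, so sex was balanced between the groups. Because 3 of the 6 libraries went against a label, counts are also given without them. That setting leaves a single comorbid library, replicate 2, against 2 of APP/PS1, and it takes the spread from the other groups, so its p-values assume that the lone library varies as they do. Over all 6 as labelled, the log2 fold change of Sirt3 was -1.71 ± 0.81 (SE, unadjusted p = 0.0648, adjusted p = 0.974 by edgeR).

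**Figure D1:**
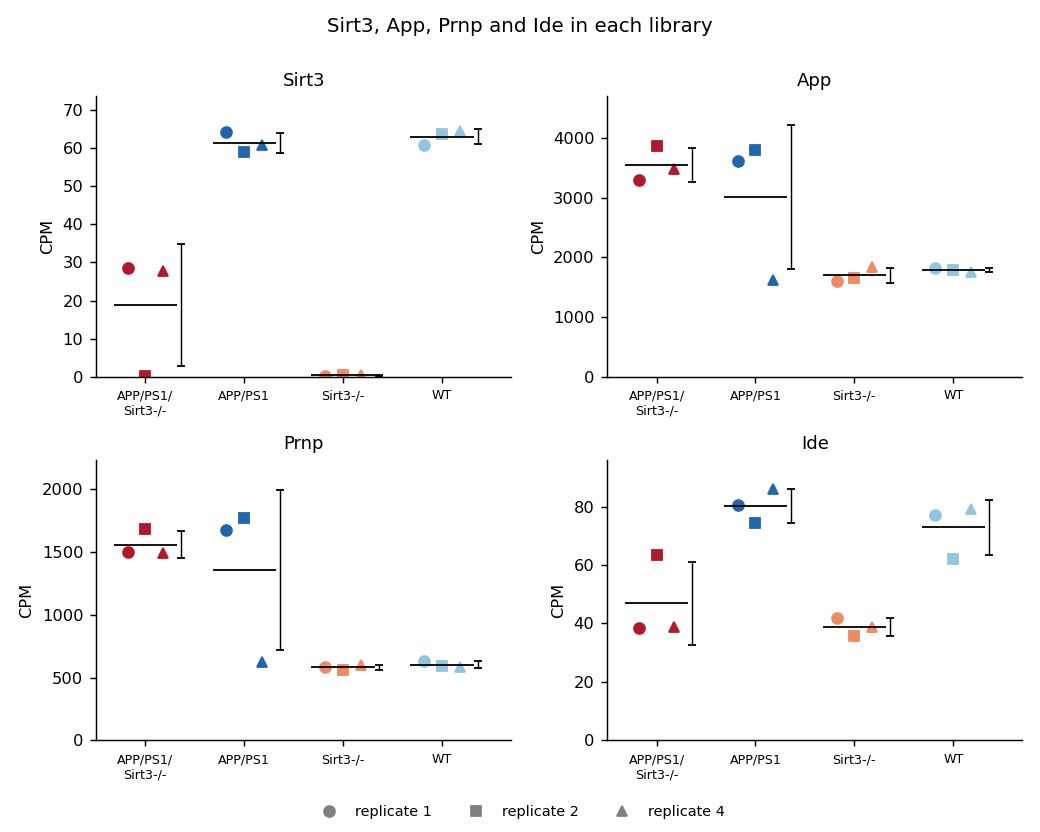
CPM of Sirt3, App, Prnp and Ide in each of the 12 libraries, by group. Points are libraries, with a symbol for each replicate number, and lines and bars are the mean and SD of 3 libraries. Sirt3 lies at 28.6 and 27.7 CPM in the libraries labelled APP/PS1/Sirt3-/- replicates 1 and 4 and at 0.211 CPM in replicate 2, and App and Prnp lie at WT levels in the library labelled APP/PS1 replicate 4.

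Of 16673 genes tested, 4 were called in APP/PS1/Sirt3-/- against APP/PS1, all of them higher, which is 0.0240% of the genes (edgeR's quasi-likelihood test, Benjamini-Hochberg adjusted p under 0.05). They were Pla2g4e, a calcium-dependent phospholipase A2 of group IV, and the gene copies Eif3j2, Gm3650 and Pcna-ps2. At an unadjusted p under 0.05 there were 810 genes, 4.86% of those tested, with 377 higher (2.26%) and 433 lower (2.60%). The groups did not overlap for 951 genes that were higher (5.70%) and 1036 that were lower (6.21%). The median log2 fold change of all genes was 0.01. Any other gene did not pass the adjusted test of this fit. For most such genes the level in each library, a log2 fold change or an unadjusted p is given.

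Pla2g4e (ENSMUSG00000050211, GRCm38 chromosome 2 from 120166412 to 120245335, minus strand) encodes an enzyme that moves an acyl chain from phospholipid to phosphatidylethanolamine, the first step toward N-acylethanolamines such as anandamide. It had 30.1, 35.0 and 50.5 CPM in APP/PS1/Sirt3-/-, against 5.78, 8.81 and 9.59 CPM in APP/PS1. Each comorbid library thus exceeded each APP/PS1 library, including replicates 1 and 4 with their 28.6 and 27.7 CPM of Sirt3. The log2 fold change was 2.26 ± 0.25 (SE) with an adjusted p of 0.0119 (edgeR). The difference was of like size between Sirt3-/- and WT libraries, at 53.3 ± 10.9 CPM in Sirt3-/- and 10.3 ± 1.67 CPM in WT (SD, n = 3 each). The call was lost in 9 of 23 alternatives. Among them were edgeR on the 6 libraries alone (adjusted p = 0.216), no filter on low counts (0.109) and the fit with brain-region covariates (0.337). It was also lost without APP/PS1 replicate 1, 2 or 4 (adjusted p = 0.063, 0.117 and 0.0579) or without Sirt3-/- replicate 2 (0.0571), at log2 fold changes from 2.06 to 2.40. With the 3 libraries against their labels left out, and thus 1 comorbid library, the adjusted p was 0.0876 and the log2 fold change 2.26. The other 3 group IV phospholipases tested, Pla2g4a, Pla2g4b and Pla2g4c, had log2 fold changes of -0.38, -0.40 and 0.52 and unadjusted p-values of 0.123, 0.305 and 0.267.

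The 300 bases around the start of Pla2g4e are shown because it was the called gene that is not a copy of another gene. The sequence is that of RefSeq (GRCm38.p6, chr2:120245286-120245585, minus strand), with 250 bases before the start and 50 after it, and capitals mark the match to CAGCTG.
Pla2g4e promoter: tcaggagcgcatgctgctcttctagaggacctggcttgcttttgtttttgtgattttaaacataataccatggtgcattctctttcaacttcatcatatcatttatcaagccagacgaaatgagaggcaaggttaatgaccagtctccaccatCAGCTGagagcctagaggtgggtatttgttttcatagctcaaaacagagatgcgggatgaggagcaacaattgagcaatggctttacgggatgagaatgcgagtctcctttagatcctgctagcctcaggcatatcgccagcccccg
Both strands were searched for 7 motifs. CAGCTG, which occurred in 16.3% of 32851 promoters of this length, was found once. TATAAA (13.6% of promoters), CCAAT (37.4%), GGGCGG (35.7%), CACGTG (7.15%), TGACGTCA (1.79%) and TGACTCA (5.20%) were not in this window.

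Pcna-ps2 (ENSMUSG00000067608, chromosome 19 from 9283238 to 9284494, plus strand) is a copy of Pcna, the sliding clamp of DNA polymerase, and is annotated as protein coding. It had 2.19, 4.01 and 4.74 CPM in APP/PS1/Sirt3-/-, against 0.0535, 0.322 and 0 CPM in APP/PS1. The log2 fold change was 4.88 ± 0.59 with an adjusted p of 0.00763 (edgeR). The APP/PS1 group rests on 6 reads in all, against 196 in APP/PS1/Sirt3-/-, a ratio of 31.6 with a 95% interval of 14.2 to 87.1 (exact, counting error only). Without APP/PS1 replicate 1 the adjusted p was 0.0946. Its parent Pcna had 27.5, 28.4 and 24.0 CPM in APP/PS1/Sirt3-/-, against 30.8, 30.4 and 31.1 CPM in APP/PS1, with a log2 fold change of -0.21 ± 0.11 (unadjusted p = 0.0874). The sum of parent and copy was 30.3 ± 1.92 CPM in APP/PS1/Sirt3-/- and 30.9 ± 0.212 CPM in APP/PS1 (SD, n = 3 each). Reads of the copy and of the parent can be told apart only where their sequences differ, so both levels are uncertain.

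Over the 781 bases of the Pcna-ps2 transcript in GENCODE vM21, 775 were identical to the coding sequence of Pcna and 6 differed. They are A144G, A177C, G424A, A586G, G618T and G699A, counted from 1 at the first coding base of Pcna, with the base of Pcna first. The stretch from coding base 411 to 710 holds 4 of them and is shown for both genes, with the differing bases in capitals. It was chosen because within the 781 matched bases the transcripts differ at such bases alone. How reads were assigned was not tested. In Pcna (chr2:132249692-132251415, minus strand) it is spliced from several exons, and in Pcna-ps2 (chr19:9283789-9284088, plus strand) it is continuous.
Pcna: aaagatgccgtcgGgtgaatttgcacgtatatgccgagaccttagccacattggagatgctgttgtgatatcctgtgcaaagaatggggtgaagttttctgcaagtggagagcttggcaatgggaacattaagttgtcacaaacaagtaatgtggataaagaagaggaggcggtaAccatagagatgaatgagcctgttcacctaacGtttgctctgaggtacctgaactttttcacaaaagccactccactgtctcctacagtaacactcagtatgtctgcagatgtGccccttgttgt
Pcna-ps2: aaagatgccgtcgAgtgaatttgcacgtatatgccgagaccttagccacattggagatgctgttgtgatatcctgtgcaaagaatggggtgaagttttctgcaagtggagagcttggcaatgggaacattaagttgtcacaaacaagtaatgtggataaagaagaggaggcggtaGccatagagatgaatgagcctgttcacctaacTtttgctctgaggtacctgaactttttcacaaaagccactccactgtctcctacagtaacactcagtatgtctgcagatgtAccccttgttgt

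The authors' alignment allowed up to 2 mismatches per read. The parent gene of the copy lies on chromosome 2, 12.1 Mb from Pla2g4e.

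Eif3j2 (ENSMUSG00000043424, chromosome 18 from 43475418 to 43477796, minus strand) is a copy of Eif3j1, which encodes a subunit of translation initiation factor eIF3. Eif3j2 had 9.47, 9.60 and 14.9 CPM in APP/PS1/Sirt3-/-, against 1.02, 0.901 and 0.856 CPM in APP/PS1. The log2 fold change was 3.60 ± 0.28 with an adjusted p of 0.00011 (edgeR). Gm3650 (ENSMUSG00000097891, chromosome 18 from 43472816 to 43475169, plus strand) is annotated as a pseudogene next to Eif3j2. It had 4.85, 3.80 and 6.60 CPM in APP/PS1/Sirt3-/-, against 0.0535, 0.0643 and 0 CPM in APP/PS1, with an adjusted p of 0.000491 (edgeR). Its APP/PS1 level rests on 2 reads, against 270 in APP/PS1/Sirt3-/-, a ratio of 130 with a 95% interval of 35.8 to 1083. Eif3j1 itself (chromosome 2 from 122028546 to 122056598) had 27.4, 31.1 and 17.6 CPM in APP/PS1/Sirt3-/-, against 40.3, 41.6 and 41.8 CPM in APP/PS1. The parent was therefore lower in each comorbid library, with a log2 fold change of -0.70 ± 0.19 (unadjusted p = 0.0032, adjusted p = 0.974 by edgeR).

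In transcript sequence, Eif3j2 was 99.4% identical to Eif3j1 over 2379 bases, with 4 mismatches, and the 5 stretches of Gm3650 that matched Eif3j1 did so on the opposite strand at 96.1% to 100% identity. The 3 genes together had 41.7, 44.5 and 39.2 CPM in APP/PS1/Sirt3-/-, against 41.4, 42.5 and 42.7 CPM in APP/PS1. The mean of these sums was 41.8 ± 2.68 CPM in APP/PS1/Sirt3-/- and 42.2 ± 0.691 CPM in APP/PS1 (SD, n = 3 each), and the sums overlapped. Without Gm3650, the sum of Eif3j1 and Eif3j2 was 36.9, 40.7 and 32.6 CPM in APP/PS1/Sirt3-/-, against 41.4, 42.5 and 42.7 CPM in APP/PS1, and the groups did not overlap. Eif3j2 held 25.7%, 23.6% and 45.8% of the reads of Eif3j1 and Eif3j2 in APP/PS1/Sirt3-/-, against 2.46%, 2.12% and 2.01% in APP/PS1. The share was highest in replicate 4 of APP/PS1/Sirt3-/-, the library in which Eif3j1 was lowest. In Sirt3-/- it was 25.3%, 43.1% and 48.9%, against 1.97%, 1.42% and 2.55% in WT. How reads were divided between parent and copy was not tested. Gm3650 and Eif3j2 do not overlap on chromosome 18. Where the sequences of Gm3650 and Eif3j1 are identical and strand is not used, their reads cannot be told apart.

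**Figure D2:**
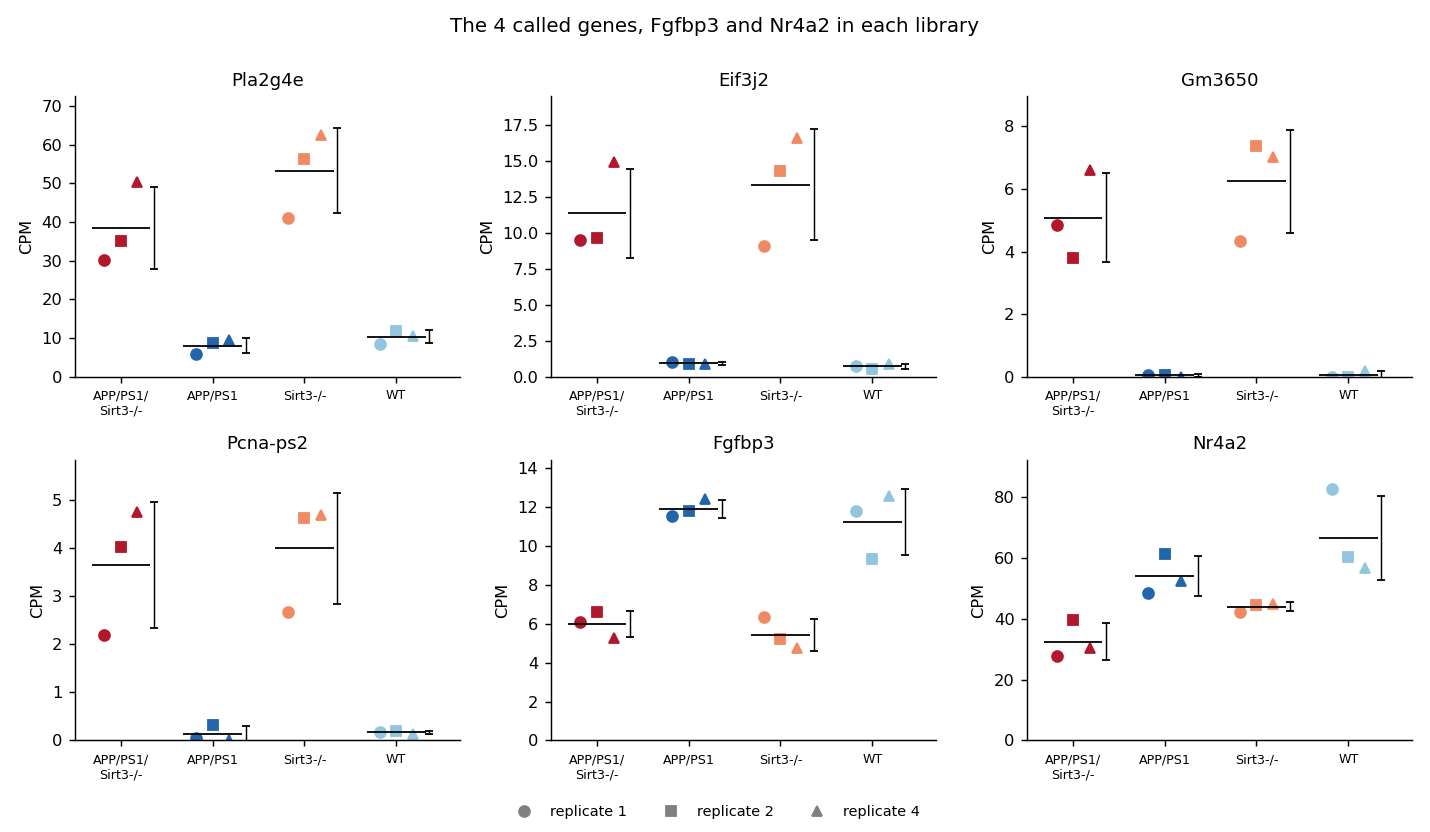
CPM in each library of the 4 called genes and of Fgfbp3 and Nr4a2, with the mean and SD of 3 libraries. The 3 APP/PS1/Sirt3-/- libraries lie above the 3 APP/PS1 libraries for Pla2g4e (30.1 to 50.5 against 5.78 to 9.59 CPM), Eif3j2, Gm3650 and Pcna-ps2, and below them for Fgfbp3 and Nr4a2.

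**Figure D3:**
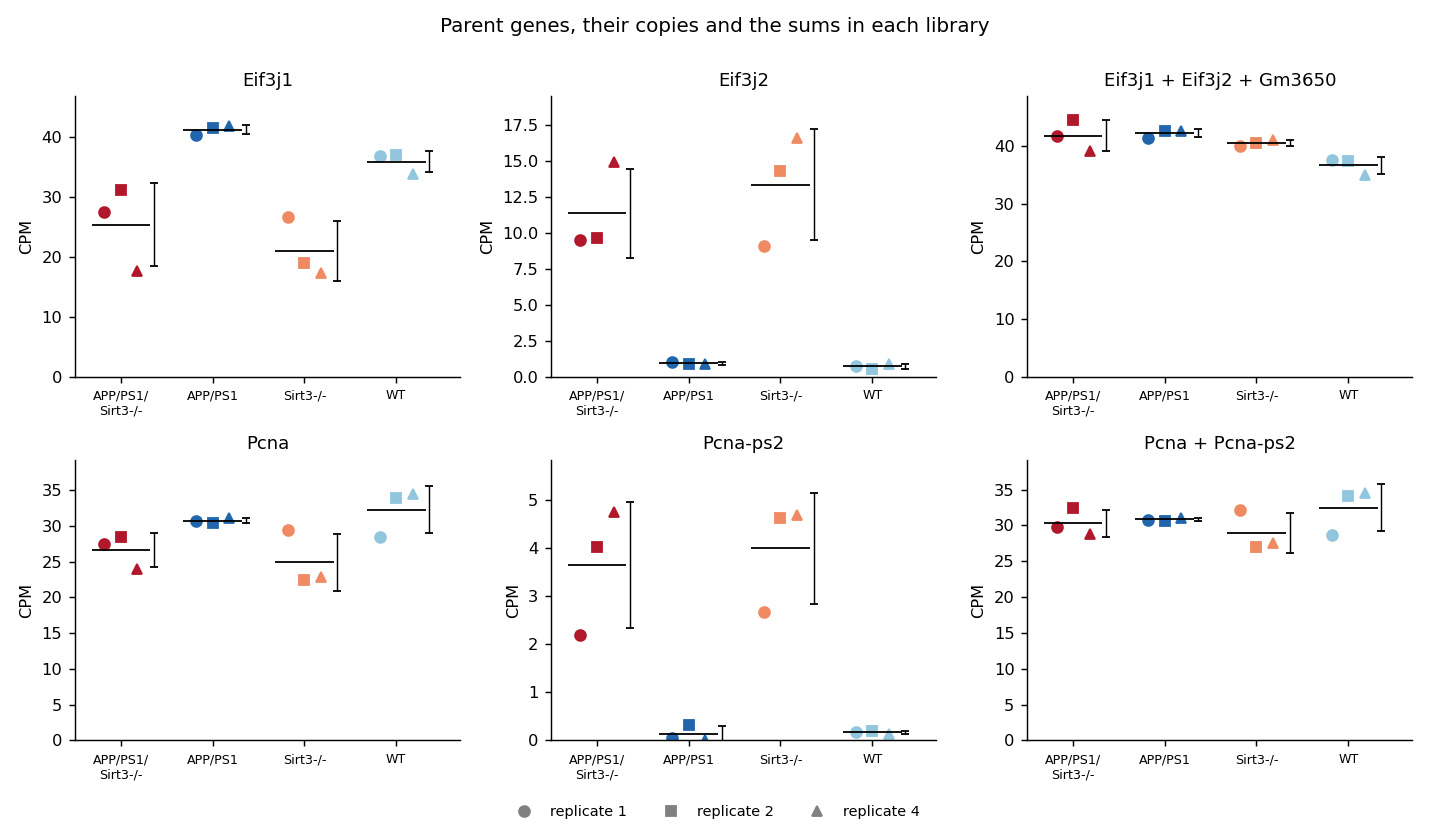
CPM in each library of Eif3j1, its copy Eif3j2 and their sum with Gm3650, and of Pcna, its copy Pcna-ps2 and their sum, with the mean and SD of 3 libraries. Copies are higher and parents lower in APP/PS1/Sirt3-/- than in APP/PS1, while the mean sums are 41.8 CPM in APP/PS1/Sirt3-/- and 42.2 CPM in APP/PS1 for Eif3j1 with both of its copies, and 30.3 CPM in APP/PS1/Sirt3-/- and 30.9 CPM in APP/PS1 for Pcna with its copy.

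Insulin-degrading enzyme was lower in the comorbid libraries without reaching the adjusted threshold. Ide (ENSMUSG00000056999, chromosome 19 from 37268743 to 37337852, minus strand) had 38.6, 63.3 and 38.8 CPM in APP/PS1/Sirt3-/-, against 80.5, 74.4 and 86.0 CPM in APP/PS1. The groups did not overlap, and the log2 fold change was -0.77 ± 0.17 (unadjusted p = 0.000912, adjusted p = 0.974 by edgeR). The comorbid libraries were not alike. Replicate 2, the one with 0.211 CPM of Sirt3, lay nearest to APP/PS1, and replicates 1 and 4 lay at the Sirt3-/- level of 38.7 ± 3.10 CPM (SD, n = 3). Without replicate 2 of APP/PS1/Sirt3-/- the adjusted p was 0.00203, which compares 2 comorbid libraries. With replicates 1 and 4 left out the comorbid group is 1 library, whose log2 fold change was -0.35 (adjusted p = 0.906, with the spread taken from the other groups). DESeq2 on the 12 libraries gave an adjusted p of 0.0245.

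Fgfbp3 and Btaf1, which lie near Ide, were lower too. Fgfbp3, which encodes a secreted protein that binds fibroblast growth factors and lies on the same strand as Ide, had 6.06, 6.60 and 5.26 CPM in APP/PS1/Sirt3-/-, against 11.5, 11.8 and 12.4 CPM in APP/PS1, with a log2 fold change of -0.99 ± 0.15 and an adjusted p of 0.0559 (edgeR). All 3 comorbid libraries lay near the Sirt3-/- mean of 5.42 CPM. Btaf1, a regulator of the TATA-binding protein, lies between Fgfbp3 and Ide. It had 33.6, 40.8 and 28.3 CPM in APP/PS1/Sirt3-/-, against 52.2, 49.9 and 46.7 CPM in APP/PS1 (log2 fold change -0.53 ± 0.15, unadjusted p = 0.00328). Ide itself, Fgfbp3 and Btaf1 were the 3 genes at an unadjusted p under 0.05 among the 24 tested within 2 Mb of Ide. That was 12.5%, against 4.86% of all genes, in a window taken after the values were seen. From 2 to 5 Mb after Ide the count was 5 of 35 (14.3%), 4 of them higher. From 5 to 10 Mb after it the count was 4 of 78 (5.13%), and from 10 to 15 Mb 3 of 9, all higher. From 10 to 5 Mb before Ide it was 0 of 25. In Sirt3-/- against WT, Ide, Fgfbp3 and Btaf1 were lower as well, with log2 fold changes of -0.91 for Ide, -1.05 for Fgfbp3 and -0.60 for Btaf1.

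Genes that differed were frequent around Pla2g4e. Within 2 Mb of its start, 27 of 88 tested genes had an unadjusted p under 0.05 (30.7%, against 4.86% of all genes), 18 of them higher and 9 lower. In the stretch from 2 Mb before to 13 Mb after Pla2g4e, whose bounds were set after the values were seen, the count was 40 of 217 (18.4%), against 770 of 16456 elsewhere (4.68%). From 10 to 5 Mb before it the count was 0 of 22, and from 20 to 10 Mb before it 2 of 50. Without the 3 libraries against their labels, with 1 comorbid library remaining, the count in the stretch was 16 of 217 (7.37%, against 4.10% of all genes), and without replicate 4 of APP/PS1 alone it was 25 of 217 (11.5%, against 3.02%). The stretch includes Ivd, the isovaleryl-CoA dehydrogenase of leucine breakdown in mitochondria, which had 77.6, 80.1 and 50.3 CPM in APP/PS1/Sirt3-/-, against 100.3, 108 and 108 CPM in APP/PS1. Bloc1s6, a subunit of a complex that sorts cargo to lysosome-related organelles, had 27.0, 27.0 and 31.0 CPM in APP/PS1/Sirt3-/-, against 22.2, 19.6 and 21.7 CPM in APP/PS1. Fermt1, which encodes the integrin activator kindlin-1, had 0.346, 0.211 and 0.463 CPM in APP/PS1/Sirt3-/-, against 1.07, 2.44 and 2.63 CPM in APP/PS1. For none of these 3 genes did the groups overlap, and their unadjusted p-values were 0.00408, 0.000557 and 0.0003.

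For several genes of this stretch replicate 4 of APP/PS1/Sirt3-/- lay farthest from APP/PS1, while for Fermt1 replicate 2 did. Mfap1b had 15.1, 17.6 and 9.20 CPM in APP/PS1/Sirt3-/-, against 21.1, 19.4 and 21.4 CPM in APP/PS1, so that replicate 4 lay apart from replicates 1 and 2, as it did for Eif3j1 and Ivd. The Sirt3-/- mean of Mfap1b was 10.2 CPM, against 19.0 CPM in WT. Exd1 had 3.23, 2.74 and 4.92 CPM in APP/PS1/Sirt3-/-, against 1.71, 2.06 and 1.65 CPM in APP/PS1, again with replicate 4 the farthest from the APP/PS1 range. Bub1b, a kinase of the spindle checkpoint, had a log2 fold change of -1.36 (unadjusted p = 0.0309), and of -3.10 in Sirt3-/- against WT. Gm13999, an antisense transcript close to Pla2g4e, had 25 reads in APP/PS1/Sirt3-/- and 1 in APP/PS1, a ratio of 24.2 with a 95% interval of 3.95 to 992.

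**Figure D4:**
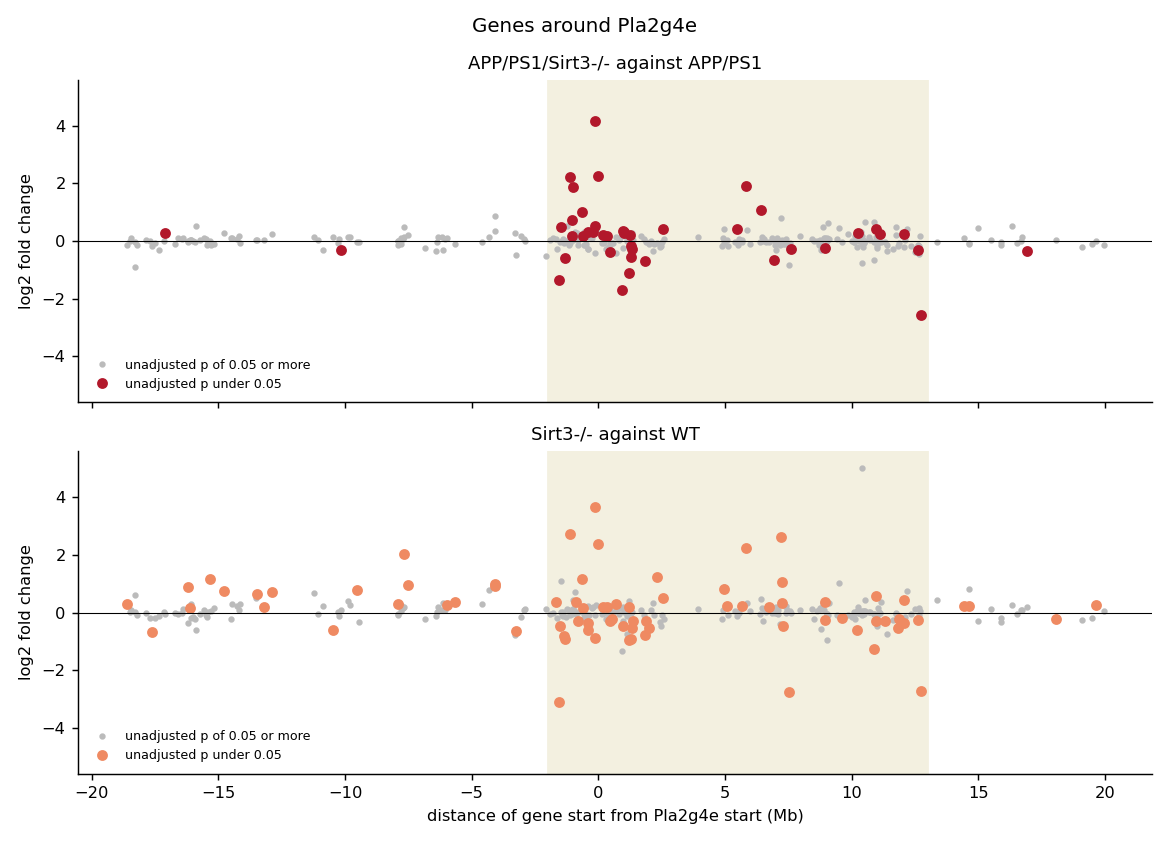
Log2 fold change of each tested gene against the distance of its start from that of Pla2g4e in Mb, for APP/PS1/Sirt3-/- against APP/PS1 (above) and Sirt3-/- against WT (below). Coloured points are genes with an unadjusted p under 0.05, and shading marks the stretch from 2 Mb before to 13 Mb after Pla2g4e, which holds 40 of them among 217 genes in the upper panel and 56 in the lower.

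The remaining 6 libraries of the series give a comparison with no library in common. Of the 40 genes in the stretch, 33 had the same sign in Sirt3-/- against WT (82.5%), where 529 of all 810 genes at an unadjusted p under 0.05 did (65.3%). Sirt3-/- against WT itself had 56 of 217 genes of the stretch at an unadjusted p under 0.05 (25.8%), against 13.5% of all genes. Outside the stretch it had 6 of 22 from 10 to 5 Mb before Pla2g4e (27.3%) and 10 of 50 from 20 to 10 Mb before it (20%). From 15 to 20 Mb after Pla2g4e it had 2 of 14 (14.3%). This comparison thus did not set the stretch apart from the genes before it. Taken the other way, 28 genes of the stretch had an unadjusted p under 0.01 in Sirt3-/- against WT, and 27 of them had the same sign in APP/PS1/Sirt3-/- against APP/PS1 (96.4%), where 575 of 783 genes did over the whole genome (73.4%). The median shift of these 28 genes from the APP/PS1 mean, counted toward Sirt3-/-, was 0.35, 0.28 and 0.45 on the log2 scale in the 3 comorbid libraries and 0.40, 0.60 and 0.59 in the 3 Sirt3-/- libraries. Over the 783 genes chosen in the same way, the shifts were 0.12, 0.04 and 0.14 in the comorbid libraries and 0.18, 0.41 and 0.18 in Sirt3-/-. All 3 comorbid libraries were thus shifted in both sets, and farther in the stretch. These genes, and those at Ide, were chosen and signed by Sirt3-/- against WT. The shifts of the Sirt3-/- libraries follow in part from that choice. For the 3 genes at Ide the median shift was 0.96, 0.34 and 1.04 in the comorbid libraries and 0.90, 1.17 and 1.05 in Sirt3-/-. The median of replicate 2 was the lowest, while its Fgfbp3 level of 6.60 CPM was close to those of replicates 1 and 4. The interaction test of the difference between both comparisons gave the called genes adjusted p-values of 0.974 for Pla2g4e, 0.850 for Eif3j2, 0.978 for Gm3650 and 0.968 for Pcna-ps2 (edgeR), which does not show that the differences were equal.

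Around Sirt3 itself on chromosome 7, 5 of 79 genes within 2 Mb had an unadjusted p under 0.05 (6.33%, close to the 4.86% of all genes). The gene 9330101J02Rik, annotated as protein coding, had 8.37, 13.5 and 8.04 CPM in APP/PS1/Sirt3-/-, against 5.51, 5.40 and 4.68 CPM in APP/PS1 (log2 fold change 0.94 ± 0.23, unadjusted p = 0.00102). Replicate 2 reached the Sirt3-/- mean of 13.4 CPM, and replicates 1 and 4 lay between that and the APP/PS1 values, as they did for Sirt3. Its neighbour E030019B06Rik had 5.37, 7.07 and 5.32 CPM in APP/PS1/Sirt3-/-, against 4.28, 3.99 and 3.88 CPM in APP/PS1. H19, an imprinted non-coding RNA, had 0.404, 0.317 and 0.174 CPM in APP/PS1/Sirt3-/-, against 0.856, 0.708 and 3.99 CPM in APP/PS1, where replicate 4 was the highest.

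The mRNA of mitochondrial proteins known to be deacetylated by SIRT3 differed little. None of 27 genes on that list had an unadjusted p under 0.05, and their median log2 fold change was 0.00. Sod2, the superoxide dismutase of the matrix, had 128, 133 and 116 CPM in APP/PS1/Sirt3-/-, against 127, 126 and 117 CPM in APP/PS1. Idh2, the NADP-dependent isocitrate dehydrogenase, had 38.3, 35.5 and 39.5 CPM in APP/PS1/Sirt3-/-, against 38.5, 37.3 and 44.5 CPM in APP/PS1. Of 25 genes of fatty acid oxidation and ketone bodies none had an unadjusted p under 0.05. None of the other 6 sirtuins had an unadjusted p under 0.05, and Sirt1 had a log2 fold change of 0.17 ± 0.10 (unadjusted p = 0.0955).

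Of 83 nuclear-encoded subunits of the respiratory chain and ATP synthase tested, none was called. At an unadjusted p under 0.05, 9 were lower and 1 higher (12%, against 4.86% of all genes). Of the 83, 72 had a negative log2 fold change, where 8008 of all 16673 genes did. The median was -0.10, beside 0.01 for all genes. Sums over the list were 10528, 10559 and 9884 CPM in APP/PS1/Sirt3-/-, against 10696, 10336 and 11471 CPM in APP/PS1, and they overlapped. APP/PS1 replicate 4 had the highest sum. Without that library the median was -0.05, and 7 genes were lower at an unadjusted p under 0.05 (8.43%, against 3.02% of all genes). Cox7c, a subunit of cytochrome c oxidase, had 124, 111 and 105 CPM in APP/PS1/Sirt3-/-, against 131, 144 and 148 CPM in APP/PS1 (log2 fold change -0.32 ± 0.08, unadjusted p = 0.000986). Atp5k, a subunit of ATP synthase, had 66.2, 64.9 and 57.0 CPM in APP/PS1/Sirt3-/-, against 80.3, 87.5 and 79.8 CPM in APP/PS1 (unadjusted p = 0.00325). Uqcrb and Uqcr11, subunits of complex III, and Ndufa6, Ndufs7, Ndufa1 and Ndufa10, subunits of complex I, had log2 fold changes from -0.29 to -0.15. Ndufb2, also of complex I, was higher, with a log2 fold change of 0.36 ± 0.12 (unadjusted p = 0.0111). With the 3 libraries against their labels left out, so that 1 comorbid library remained, the count was 2 lower and 1 higher (3.61%, against 4.10% of all genes) and the median -0.03. In Sirt3-/- against WT the median of the list was 0.09.

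Of 12 genes of the mitochondrial genome, 11 had a negative log2 fold change, and 2 had an unadjusted p under 0.05 (16.7%, against 4.86% of all genes). The gene mt-Co2, a subunit of cytochrome c oxidase, had 18.8, 19.0 and 14.6 CPM in APP/PS1/Sirt3-/-, against 25.5, 30.7 and 25.2 CPM in APP/PS1 (log2 fold change -0.64 ± 0.15, unadjusted p = 0.00114). Summed over the genome, mitochondrial reads were 23578, 23726 and 25368 CPM in APP/PS1/Sirt3-/-, against 26029, 26295 and 23853 CPM in APP/PS1, and these sums overlapped. The counted reads of mt-Co2 were a very small part of these sums. How reads were assigned to mt-Co2 was not tested, so its level is uncertain. Of 76 mitochondrial ribosomal proteins, 56 were negative, with a median of -0.05. At an unadjusted p under 0.05, 4 were lower (5.26%, near the 4.86% of all genes). In the tricarboxylic acid cycle list Mpc2, a subunit of the mitochondrial pyruvate carrier, and Pdk2, a kinase of pyruvate dehydrogenase, were lower at unadjusted p-values of 0.0113 and 0.0276, out of 30 genes. That was 6.67% of the list, near the 4.86% of all genes. Without APP/PS1 replicate 4 none of the 30 had an unadjusted p under 0.05. Among 29 antioxidant genes the peroxiredoxins Prdx6 and Prdx5 were lower, at 0.0427 and 0.0465 (6.90%, near the 4.86% of all genes).

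A list of 20 genes of endoplasmic reticulum chaperones and the unfolded protein response was added after values had been seen, and none of its genes was called. At an unadjusted p under 0.05, 5 were higher and none lower (25.0%, against 4.86% of all genes). The median log2 fold change was 0.11, and -0.07 in Sirt3-/- against WT. Hspa5, the reticulum's Hsp70 chaperone BiP, had 337, 349 and 322 CPM in APP/PS1/Sirt3-/-, against 296, 241 and 301 CPM in APP/PS1. Hyou1, another Hsp70-related chaperone, had 166, 160.0 and 178 CPM in APP/PS1/Sirt3-/-, against 140.1, 132 and 146 CPM in APP/PS1. Pdia3, a disulfide isomerase, had 182, 185 and 183 CPM in APP/PS1/Sirt3-/-, against 156, 161 and 154 CPM in APP/PS1, and it lies within 2 Mb of Pla2g4e. Calr and Pdia6 had log2 fold changes of 0.15 and 0.16. The transcription factors that act downstream of unfolded protein, Atf4, Ddit3 and Xbp1, had log2 fold changes of -0.01, 0.01 and 0.08 (unadjusted p = 0.889, 0.911 and 0.408). Summed over the list, the comorbid libraries had 2519, 2549 and 2479.9 CPM, against 2315, 2209 and 2302 CPM in APP/PS1. With the 3 libraries against their labels left out, so that 1 comorbid library remained, the median was 0.12.

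Of 17 peptidases that can cleave the amyloid peptide or limit its clearance, only Ide had an unadjusted p under 0.05 (5.88%, near the 4.86% of all genes). Mme had 7.97, 7.39 and 9.78 CPM in APP/PS1/Sirt3-/-, against 8.24, 6.30 and 4.85 CPM in APP/PS1, and Ece1, an endothelin-converting enzyme, 68.5, 68.1 and 80.6 CPM in APP/PS1/Sirt3-/-, against 72.7, 69.0 and 65.5 CPM in APP/PS1. None of 17 genes of amyloid precursor processing had an unadjusted p under 0.05. Bace1, the beta-secretase, had 115, 124 and 112 CPM in APP/PS1/Sirt3-/-, against 112, 116 and 113 CPM in APP/PS1.

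Genes of plaque-associated microglia varied widely among the APP/PS1 libraries. Cst7, which encodes cystatin F, had 6.18, 6.70 and 5.03 CPM in APP/PS1/Sirt3-/-, against 2.94, 15.6 and 0.0571 CPM in APP/PS1. Itgax, the integrin CD11c, had 3.35, 2.22 and 2.43 CPM in APP/PS1/Sirt3-/-, against 1.02, 6.37 and 0.228 CPM in APP/PS1. For both genes replicate 4 of APP/PS1, whose App was at the WT level, was lowest and replicate 2 highest. The same order was seen for Clec7a, an innate immune receptor, with 1.79, 1.64 and 1.27 CPM in APP/PS1/Sirt3-/-, against 1.23, 3.35 and 0.171 CPM in APP/PS1. Tyrobp, a signaling adaptor, had 19.8, 17.7 and 18.9 CPM in APP/PS1/Sirt3-/-, against 15.1, 31.9 and 9.24 CPM in APP/PS1. Of 24 genes on the list 1 had an unadjusted p under 0.05 (4.17%, near the 4.86% of all genes). It was the lipoprotein lipase gene Lpl, with 19.6, 20.8 and 20.2 CPM in APP/PS1/Sirt3-/-, against 22.2, 27.7 and 27.7 CPM in APP/PS1. The median of the list was 0.01. In bulk tissue fewer cells of a type and less RNA per cell cannot be told apart.

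Of 18 complement genes, C3 alone had an unadjusted p under 0.05 (5.56%, near the 4.86% of all genes). C3 had 6.52, 5.96 and 14.7 CPM in APP/PS1/Sirt3-/-, against 2.68, 3.80 and 3.88 CPM in APP/PS1, so that the groups did not overlap and replicate 4 was the highest. The log2 fold change was 1.39 ± 0.61 (unadjusted p = 0.0455, adjusted p = 0.974 by edgeR). DESeq2 on the 6 libraries gave an adjusted p of 0.0307, the 1 call of C3 among 23 alternatives. DESeq2 on the 12 libraries did not call it. Without replicate 4 of APP/PS1/Sirt3-/- the log2 fold change by edgeR was 0.86. Ccl3, a chemokine, had 1.27, 1.06 and 1.10 CPM in APP/PS1/Sirt3-/-, against 0.535, 1.61 and 0.171 CPM in APP/PS1. Serpina3n, a marker of reactive astrocytes, had 16.5, 17.6 and 19.4 CPM in APP/PS1/Sirt3-/-, against 18.5, 30.7 and 14.9 CPM in APP/PS1. Cd83 and Serpina3k overlapped as well, with unadjusted p-values of 0.693 and 0.562. None of 24 cytokine, chemokine and inflammasome genes and none of 15 homeostatic microglial genes had an unadjusted p under 0.05.

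Of 39 genes of insulin signaling none was called. At an unadjusted p under 0.05, 3 were higher and 2 lower (12.8%, against 4.86% of all genes), and the median was 0.02. Without APP/PS1 replicate 4, 1 was higher and 1 lower (5.13%, against 3.02% of all genes). Insr, the insulin receptor, had 59.4, 64.6 and 60.9 CPM in APP/PS1/Sirt3-/-, against 54.5, 52.5 and 58.8 CPM in APP/PS1 (log2 fold change 0.16 ± 0.07, unadjusted p = 0.0332). Mtor, the kinase of both mTOR complexes, had 142, 154 and 158 CPM in APP/PS1/Sirt3-/-, against 134, 140.3 and 127 CPM in APP/PS1. Tsc1, an inhibitor of mTORC1, was also higher (0.13, unadjusted p = 0.0466). Shc1, an adaptor of the receptor, and Ide were lower. None of 10 diacylglycerol kinases, which phosphorylate diacylglycerol to phosphatidic acid, had an unadjusted p under 0.05. Among them Dgkk, the only one whose groups did not overlap, had 10.4, 10.7 and 9.31 CPM in APP/PS1/Sirt3-/-, against 7.65, 6.69 and 4.05 CPM in APP/PS1 (unadjusted p = 0.328).

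Neuronal activity genes held 2 of 23 that were lower at an unadjusted p under 0.05 (8.70%, against 4.86% of all genes in either direction), and none was called. Nr4a2, a nuclear receptor induced by activity, had 27.6, 39.4 and 30.3 CPM in APP/PS1/Sirt3-/-, against 48.4, 61.3 and 52.4 CPM in APP/PS1 (log2 fold change -0.73 ± 0.16, unadjusted p = 0.000538). The adjusted p was 0.852 by edgeR and 0.0245 by DESeq2 on the 12 libraries. Its mean was 43.9 CPM in Sirt3-/- and 66.5 CPM in WT. Jun had a log2 fold change of -0.32 (unadjusted p = 0.0184), while the medians of the list were -0.03 here and -0.32 in Sirt3-/- against WT. Among 26 presynaptic genes Syn3, which encodes synapsin III, was higher, with 14.5, 15.9 and 13.4 CPM in APP/PS1/Sirt3-/-, against 11.4, 11.6 and 10.7 CPM in APP/PS1.

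DESeq2 on the 6 libraries alone called 30 genes, 13 higher and 17 lower, which include the 4 genes above. Cbln2, a synaptic organiser of the cerebellin family, had 46.9, 48.2 and 53.2 CPM in APP/PS1/Sirt3-/-, against 33.5, 31.2 and 32.7 CPM in APP/PS1, with an adjusted p of 6.4e-05 by DESeq2. Col25a1, a transmembrane collagen found in amyloid plaques, had 57.3, 54.9 and 53.1 CPM in APP/PS1/Sirt3-/-, against 43.0, 37.4 and 33.3 CPM in APP/PS1, with an adjusted p of 0.00699 by DESeq2. Scg2, a secretogranin of dense-core vesicles, had 279, 277 and 344 CPM in APP/PS1/Sirt3-/-, against 250.2, 183 and 187 CPM in APP/PS1, and Mt3, the brain metallothionein, 286, 239 and 269.7 CPM in APP/PS1/Sirt3-/-, against 346, 409 and 316 CPM in APP/PS1. Groups did not overlap for any of these 4 genes, and edgeR on the 12 libraries called none of them.

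Markers of brain regions and of other cell types differed between the groups. On the list of hippocampal neurons, 6 of 14 genes were lower at an unadjusted p under 0.05 (42.9%, against 4.86% of all genes in either direction), with a median of -0.32 and none called. Dsp, a desmosomal gene of dentate granule cells, had 1.21, 1.37 and 0.521 CPM in APP/PS1/Sirt3-/-, against 4.07, 7.27 and 8.96 CPM in APP/PS1, and Lct 1.15, 0.739 and 1.45 CPM in APP/PS1/Sirt3-/-, against 2.14, 4.37 and 11.1 CPM in APP/PS1. Prox1, a defining gene of the dentate gyrus, had 27.4, 28.8 and 11.2 CPM in APP/PS1/Sirt3-/-, against 21.1, 27.7 and 32.4 CPM in APP/PS1, and did overlap. The summed level of the list was 494 to 528 CPM in APP/PS1/Sirt3-/-, against 597 to 685 CPM in APP/PS1. Without the 3 libraries against their labels, and so with 1 comorbid library, the median of the list was -0.42. On the list of meninges and fibroblasts 3 of 12 were lower at an unadjusted p under 0.05 (25%, against 4.86% of all genes in either direction). Among them was Foxc1, with 8.83, 7.33 and 6.42 CPM in APP/PS1/Sirt3-/-, against 10.3, 10.6 and 10.8 CPM in APP/PS1. Sums of this list were 445 to 935 CPM in APP/PS1/Sirt3-/-, against 1031 to 1249 CPM in APP/PS1. Its median was -0.48, and -0.41 without the 3 libraries against their labels, which leaves 1 comorbid library.

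Other regional markers differed between libraries of one group. All 15 choroid plexus genes had a negative log2 fold change, with a median of -1.04 and none at an unadjusted p under 0.05. Their sum was 1074, 844 and 208 CPM in APP/PS1/Sirt3-/-, against 902, 1675 and 1684 CPM in APP/PS1, and their defining gene Ttr had 555, 445 and 9.55 CPM in APP/PS1/Sirt3-/-, against 481, 1014 and 1079 CPM in APP/PS1. Striatal projection neuron genes summed to 2159.9, 788 and 3279 CPM in APP/PS1/Sirt3-/-, against 2298, 1075 and 1227 CPM in APP/PS1, and thalamic genes to 953, 1002 and 509.6 CPM in APP/PS1/Sirt3-/-, against 717, 701 and 841 CPM in APP/PS1. Cortical excitatory neuron genes were present throughout, with Tbr1 at 72.0, 72.6 and 108 CPM in APP/PS1/Sirt3-/-, against 85.7, 89.0 and 94.6 CPM in APP/PS1. With 3 covariates in the fit, 1 each for the thalamic, striatal and choroid plexus markers, the adjusted p was 0.337 for Pla2g4e, 0.000214 for Eif3j2, 0.000706 for Gm3650, 0.06 for Pcna-ps2 and 0.068 for Ide (edgeR).

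**Figure D5:**
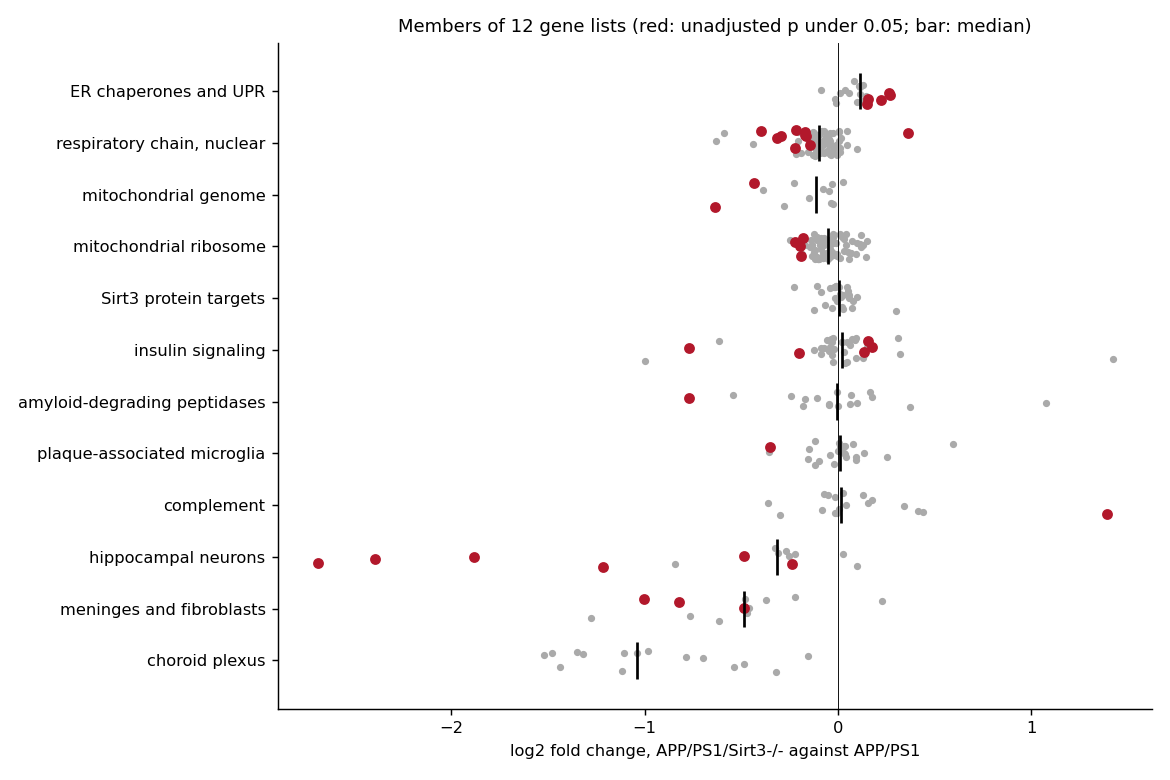
Log2 fold change in APP/PS1/Sirt3-/- against APP/PS1 of the tested members of 12 gene lists, 1 point a gene. Red points are genes with an unadjusted p under 0.05 and bars are list medians, which lie at 0.11 for endoplasmic reticulum chaperones, -0.10 for the nuclear-encoded respiratory chain and -1.04 for the choroid plexus list, where no gene is red.

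The gene differences of larger size outside these groups were mostly of genes with few reads. Among the 12 lower genes of largest log2 fold change, with an unadjusted p under 0.01 and no overlap, were Lefty1, an inhibitor of Nodal signaling, at 0.981, 1.06 and 0.868 CPM in APP/PS1/Sirt3-/-, against 2.03, 3.35 and 4.05 CPM in APP/PS1, and Shisa3 at 0.173, 0.580 and 0.405 CPM in APP/PS1/Sirt3-/-, against 1.44, 1.09 and 1.03 CPM in APP/PS1. Nodal itself, a ligand of the transforming growth factor family, was among the 12 higher genes chosen in the same way, with 0.981, 0.950 and 0.926 CPM in APP/PS1/Sirt3-/-, against 0.428, 0.386 and 0.457 CPM in APP/PS1. Lefty1 was lower in Sirt3-/- than in WT as well (log2 fold change -1.65), and Nodal had 0.344 CPM in Sirt3-/- and 0.314 CPM in WT. The higher genes also held Gm5741, at 1.67, 3.01 and 1.21 CPM in APP/PS1/Sirt3-/-, against 0.589, 0.772 and 0.628 CPM in APP/PS1.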

How the data were processed

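Cortical RNA was read as poly-A libraries. The authors trimmed the reads, aligned them with TopHat to GRCm38 (mm10), and deposited read counts per gene, which were used here. The sources used here do not name the counting program. Deposited beside them are FPKM values and the columns of the authors' own DESeq2 comparisons (normalized group means, log2 fold changes and p-values), none of which enter a result. Groups come from the library titles. Nothing says how the numbered mice were paired, and p-values measure only the spread between these samples.

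Counts were fitted with edgeR 4.0.16 (R 4.3.3) over the 12 libraries as 4 group means: filterByExpr (16673 of 35275 genes), TMM, robust quasi-likelihood, and Benjamini-Hochberg adjustment with a threshold of 0.05. The fit was tested on simulated data. DESeq2 1.42.0 was an alternative, among 23 in all. For 3 libraries against 3, the smallest two-sided exact p is 0.1. Intervals of read ratios cover counting error only. Copies were compared with blastn 2.17.0+. Members and lists were chosen with earlier results of these data known. Named were all genes called by edgeR or DESeq2, the 12 largest differences in each direction, up to 3 members per list by p, genes the study names, and neighbours within 2 Mb of Sirt3, Pla2g4e, Eif3j2 and Pcna-ps2. Genes outside this rule, such as Sod2, Idh2, Ece1, Bloc1s6 and the endoplasmic reticulum list, were chosen after their values were seen.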

Additional observations from a re-analysis of the deposited data

How the results depend on the processing

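The 4 calls became 1 with a stricter filter (1 CPM in all 12 libraries), 2 by edgeR on the 6 libraries alone, 7 by DESeq2 on 12 libraries and 30 by DESeq2 on 6. With replicates 1 and 4 of APP/PS1/Sirt3-/- left out there were 7 calls, and with the 3 libraries against their labels left out 7. Both leave 1 comorbid library, assumed to vary like the other groups. Brain-region markers as 3 covariates also gave 7; 2 of these, Uty and RP24-540G19.3, had fitted log2 fold changes of -82.7 and -62.0 but reads in replicate 4 alone (Uty 10.5 CPM in APP/PS1/Sirt3-/- and 8.10 CPM in APP/PS1), so these values cannot be read as changes. The cause was not tested. Leaving out 1 library at a time gave 2 to 6 calls, with 2 without APP/PS1 replicate 1. The replicate block gave 4 calls, the same genes, and deviations of same-numbered libraries correlated at 0.023, 0.172 and 0.048, so they were not treated as pairs. The libraries numbered 4 also share Y-linked reads. The 1987 genes without overlap became 3196 to 4325 with 1 library fewer, an alternative chosen after seeing the data in which fewer samples are compared. Over 24 genes and 542 results of alternatives, 509 kept their side of the threshold, 21 passed it only in the alternative, 12 lost it and none changed sign. Most of the 24 genes were uncalled in the main fit, so many of the 509 only stayed uncalled. The losses were of Pla2g4e, called in 14 of 23 alternatives, and Pcna-ps2, called in 19 of 22. Alternatives refit the same libraries, and many of the genes were chosen for their differences, so a kept sign says little. Genes under 1 CPM rest on few reads.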

Other observations

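Interferon response genes had a median log2 fold change of 0.19, with none of 24 at an unadjusted p under 0.05. Their sum was 377, 238 and 226 CPM in APP/PS1/Sirt3-/-, against 242, 315 and 232 CPM in APP/PS1, so replicate 1 of APP/PS1/Sirt3-/- was the highest. Blood cell genes summed to 207, 199 and 166 CPM in APP/PS1/Sirt3-/-, against 172, 163 and 431 CPM in APP/PS1, where replicate 4 was the highest. Of 17 circadian clock genes, 2 were lower at an unadjusted p under 0.05 and none higher (11.8%, against 4.86% of all genes in either direction), with a median of -0.09. Without APP/PS1 replicate 4 none of the 17 was lower. Genes of the other comparisons of the same fit numbered 49 called in Sirt3-/- against WT and none in APP/PS1 against WT, where 2836 had an unadjusted p under 0.05 (edgeR).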
